A study of Mus musculus with 5 samples.

Results

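The genes of the NF-kB switch were followed across 5 libraries of BV-2 cells. They were chosen by symbol and comprise the 5 subunit genes Nfkb1, Nfkb2, Rela, Relb and Rel, the inhibitor genes Nfkbia, Nfkbib, Nfkbie and Tnfaip3, and Ikbkb, the gene of an activating kinase. All 10 were found, once each, among the 40879 gene symbols listed in every count file. NF-kB is a family of dimeric transcription factors that are held in the cytoplasm of resting cells by IkB proteins. When a receptor for a cytokine or a microbial product is engaged, the IkB kinase (IKK) complex marks IkB for destruction and the dimers enter the nucleus. Several of the induced genes encode the pathway's own inhibitors and subunits, which limits and reshapes the response. In microglia, the resident macrophages of the brain, this pathway drives much of the transcription of inflammatory mediators.

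BV-2 is a mouse microglial line, immortalised with a retrovirus carrying oncogenes, so each group is a culture of 1 established line. The UPM library came from cells exposed to urban particulate matter at 50 µg/mL for 23 h. The TZ 1.25, TZ 2.5 and TZ 5 libraries came from cells given TZ at 1.25, 2.5 or 5 µg/mL. TZ, named in the series title as the antidepressant trazodone, was given 1 h before the same particle exposure. The control library came from cells labelled as a normal control, and a vehicle, if any, remains not given in the sources used here. RNA was read by QuantSeq 3′-end sequencing, in which each read marks the end of a polyadenylated transcript. Library totals lay between 6829720 and 7696168 counts, with 1 library in each group. Levels are normalised CPM, counts scaled to a library of 1e6 and corrected by TMM factors (0.991 to 1.01), with 95% counting intervals in parentheses. These cover counting error only, so any comparison of 2 libraries has no replicate check and does not show a difference between conditions. All 13 microglial markers examined had counts in every library, with a summed level of 3511 to 3812 normalised CPM, although P2ry12, a receptor of resting microglia, had only 5 to 11 counts. Summed levels of the astrocyte, neuron, oligodendrocyte and fibroblast markers lay between 0.133 and 3.90 normalised CPM. Those of the endothelial list were 260.5 to 294.3, of which Flt1 gave 258.5 to 292.7, while the defining endothelial gene Cldn5 had 0 to 2 counts.

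Among the subunits, Nfkb1 encodes the precursor p105 and the DNA-binding subunit p50, which lacks a transactivation domain. It had 58.2 normalised CPM in UPM (52.9 to 63.8), 49.9 at TZ 1.25 (44.9 to 55.3), 45.0 at TZ 2.5 (40.2 to 50.3) and 47.7 at TZ 5 (42.7 to 53.2), against 47.7 in the control (42.8 to 52.9). UPM was the highest library, and its interval did not overlap that of TZ 2.5. The interval of UPM only just cleared that of the control, with a lower limit of 52.88 against an upper limit of 52.85. The fold was 1.22 (1.06 to 1.41) for UPM against the control, and 0.858 (0.745 to 0.988), 0.774 (0.668 to 0.897) and 0.821 (0.709 to 0.948) for TZ 1.25, TZ 2.5 and TZ 5 against UPM. TZ 5 stood at 1.00 times the control (0.860 to 1.17). The order was UPM, TZ 1.25, TZ 5, control and TZ 2.5, in which the step from UPM to TZ 1.25 was the only one between neighbours where the interval of the fold excluded 1.

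Rela encodes p65, the main transactivating subunit. Its level was 42.7 normalised CPM in UPM (38.2 to 47.6), 38.8 at TZ 1.25 (34.4 to 43.6), 49.7 at TZ 2.5 (44.6 to 55.2) and 38.0 at TZ 5 (33.5 to 42.9), against 50.2 in the control (45.2 to 55.5). TZ 2.5 and the control were high and the other 3 libraries low, so the levels did not follow dose. TZ 2.5 and UPM did not differ beyond counting error (1.16-fold, 0.996 to 1.36). UPM stood at 0.852 times the control (0.732 to 0.990) and TZ 5 at 0.757 times (0.644 to 0.889).

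Nfkb2, the gene of the precursor p100 and of p52 in the alternative pathway, had 49.9 normalised CPM in UPM, 52.1 at TZ 1.25, 45.2 at TZ 2.5 and 46.0 at TZ 5, against 55.8 in the control. The spread from lowest to highest was 1.23-fold, and 2 of the 10 pairs of libraries differed beyond counting error, TZ 2.5 at 0.810 times the control (0.697 to 0.940) and TZ 5 at 0.824 times (0.710 to 0.956). Relb, the partner of p52, had 16.3 normalised CPM in UPM (13.6 to 19.5), 15.9 at TZ 1.25, 14.3 at TZ 2.5 and 14.8 at TZ 5, against 12.5 in the control (10.1 to 15.3). All 4 particle-exposed libraries were above the control, but the interval of the fold included 1 in each of the 10 pairs of libraries. Rel, encoding c-Rel, had 39.6 normalised CPM in UPM, 45.5 at TZ 1.25, 39.0 at TZ 2.5 and 43.8 at TZ 5, against 40.3 in the control. Its range was the narrowest of the 10 genes at 1.17-fold, and here too 0 of 10 pairs of libraries differed beyond counting error. The summed level of the 5 subunit genes was 206.7 normalised CPM in UPM and 206.5 in the control. It was 202.2 at TZ 1.25, 193.1 at TZ 2.5 and 190.3 at TZ 5. As a share of all counts, the intervals of UPM (0.0196% to 0.0216%) and TZ 5 (0.0181% to 0.0202%) overlapped.

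**Figure D1:**
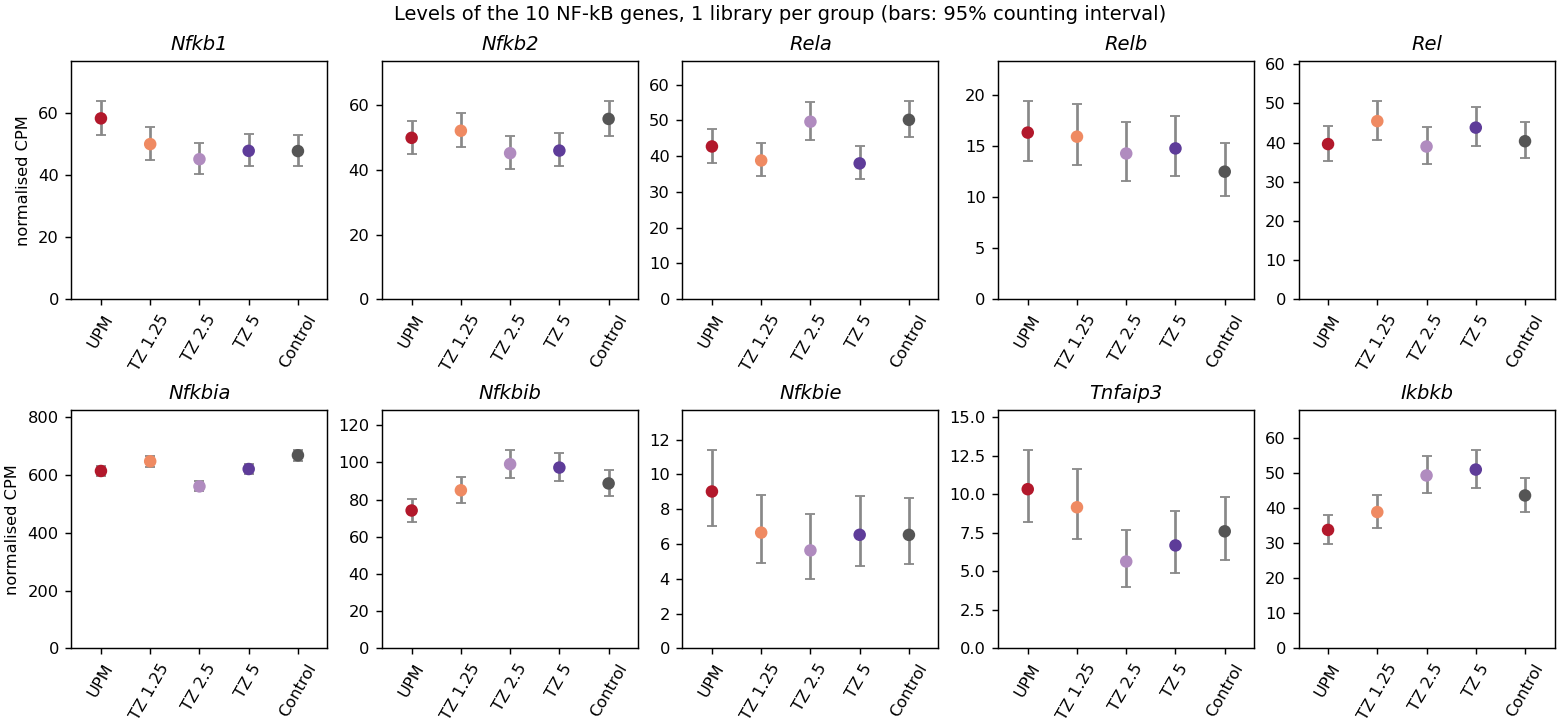
Normalised CPM (y axes, each from 0) of the 10 genes in the UPM, TZ 1.25, TZ 2.5, TZ 5 and control libraries (x axes); points are single libraries and bars 95% counting intervals. Nfkb1, Relb, Nfkbie and Tnfaip3 were highest in UPM, whereas Ikbkb and Nfkbib were lowest there, at 33.7 and 74.1 normalised CPM.

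The inhibitor genes did not share a pattern. Nfkbia encodes IkBα, the inhibitor that NF-kB itself induces and that ends a response quickly. It had the most counts of the group, with 613.4 normalised CPM in UPM (596.0 to 631.2), 646.9 at TZ 1.25 (628.5 to 665.8), 560.1 at TZ 2.5 (542.6 to 578.0) and 620.2 at TZ 5 (601.7 to 639.1), against 667.8 in the control (649.5 to 686.5). The control was the highest library and TZ 2.5 the lowest, 1.19-fold apart. At 3880 to 5017 counts per library a fold as small as 1.04 could be resolved, and 8 of the 10 pairs of libraries differed beyond counting error. UPM stood at 0.919 times the control (0.883 to 0.956), TZ 2.5 at 0.913 times UPM (0.875 to 0.953) and TZ 5 at 1.01 times UPM (0.970 to 1.05).

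Nfkbib encodes IkBβ, an inhibitor known for a slower and more lasting control than IkBα. It had 74.1 normalised CPM in UPM (68.1 to 80.5), 85.0 at TZ 1.25 (78.4 to 92.0), 99 at TZ 2.5 (91.8 to 106.7) and 97.2 at TZ 5 (90.0 to 104.8), against 88.7 in the control (82.0 to 95.7). UPM was the lowest library, below all 4 others beyond counting error. Its fold was 0.836 (0.746 to 0.936) for UPM against the control, then 1.15 (1.02 to 1.29), 1.34 (1.19 to 1.5) and 1.31 (1.17 to 1.47) for TZ 1.25, TZ 2.5 and TZ 5 against UPM. TZ 5 and the control did not differ beyond counting error (1.10-fold, 0.983 to 1.22).

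Nfkbie encodes IkBε, another inhibitor induced by NF-kB, and Tnfaip3 encodes A20, an enzyme that edits ubiquitin chains to shut off signalling to IKK. Both were sparse. Nfkbie had 69 counts in UPM, 48 at TZ 1.25, 39 at TZ 2.5 and 45 at TZ 5, against 49 in the control, or 9.02 normalised CPM in UPM (7.02 to 11.4), 6.65, 5.63 and 6.53 in the 3 TZ libraries and 6.52 in the control (4.83 to 8.62). Tnfaip3 had 79 counts in UPM, 66 at TZ 1.25, 39 at TZ 2.5 and 46 at TZ 5, against 57 in the control, or 10.3 normalised CPM in UPM (8.17 to 12.9), 9.15, 5.63 and 6.67 in the TZ libraries and 7.59 in the control (5.75 to 9.83). UPM was the highest library for both genes and TZ 2.5 the lowest. For UPM against the control the folds were 1.38 (0.945 to 2.04) and 1.36 (0.956 to 1.95), and at this depth a fold under 1.48 for Nfkbie or 1.45 for Tnfaip3 could not be resolved. TZ 2.5 stood at 0.624 times UPM for Nfkbie (0.410 to 0.938) and 0.545 times for Tnfaip3 (0.362 to 0.810). TZ 5 stood at 0.724 times UPM for Nfkbie (0.486 to 1.07) and 0.646 times for Tnfaip3 (0.439 to 0.941). Neither gene reached the mean of 10 normalised CPM required for a call.

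The sequence before the start of Nfkbia and of Nfkbie is shown. Both are known targets of NF-kB, and they had the most and the fewest counts of the 3 IkB genes. A stretch was shown only if the sequence around its start held a match to the kB consensus and the stretch overlapped no annotated gene. A match was thus a condition of being shown. Each stretch is the 150 bases before the start in RefSeq, build GRCm38.p6, read 5′ to 3′ in the direction of the gene, and capitals mark matches to the kB consensus on either strand. The Nfkbia stretch is chr12:55492648-55492797 on the minus strand and the Nfkbie stretch is chr17:45555550-45555699 on the plus strand.
Nfkbia: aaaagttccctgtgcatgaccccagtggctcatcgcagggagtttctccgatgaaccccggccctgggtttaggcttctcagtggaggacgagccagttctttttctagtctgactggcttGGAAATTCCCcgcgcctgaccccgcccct
Nfkbie: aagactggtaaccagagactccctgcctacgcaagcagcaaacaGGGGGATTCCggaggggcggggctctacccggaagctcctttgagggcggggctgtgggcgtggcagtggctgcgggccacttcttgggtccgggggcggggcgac
The Nfkbia match spans positions −29 to −20 and lies on the opposite strand, and the Nfkbie match spans −106 to −97, with the first transcribed base at 0. RefSeq windows of 300 bases (250 before the start and 50 from it on) were at hand for 7 of the 10 genes, and 5 of these (Nfkb2, Rel, Nfkbia, Nfkbie and Tnfaip3) held a match. Over all genes with a window, 5.14% held one. Rela and Nfkbib had no match in these windows. A match is a feature of the sequence and not a measure of binding.

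Ikbkb encodes IKKβ, the catalytic subunit that phosphorylates IkB in the classical pathway, and it gave the only call among the 10 genes. It had 33.7 normalised CPM in UPM (29.7 to 38.1), 38.8 at TZ 1.25 (34.4 to 43.6), 49.2 at TZ 2.5 (44.1 to 54.7) and 50.9 at TZ 5 (45.7 to 56.5), against 43.5 in the control (38.9 to 48.5). UPM was the lowest library and the level was higher at each dose. No step between neighbours in the order of levels exceeded counting error, but the control lay between TZ 1.25 and TZ 2.5 in that order. TZ 2.5 was 1.27 times TZ 1.25 (1.08 to 1.49), beyond counting error. The fold was 0.775 (0.655 to 0.915) for UPM against the control, and 1.15 (0.968 to 1.37), 1.46 (1.24 to 1.72) and 1.51 (1.28 to 1.78) for TZ 1.25, TZ 2.5 and TZ 5 against UPM. The last lay just past the 1.5-fold limit for a call and was not called with DESeq2 size factors. TZ 5 was 1.17 times the control (1.00 to 1.36) and TZ 2.5 was 1.13 times the control (0.969 to 1.32), so the larger folds were those against the low UPM library. The partner kinase gene Chuk, encoding IKKα, had 21.7 normalised CPM in UPM, 27.2 at TZ 1.25, 22.5 at TZ 2.5 and 26.1 at TZ 5, against 28.5 in the control. Ikbkg, the gene of the scaffold NEMO, had 9.80 in UPM, 11.9 at TZ 1.25, 11 at TZ 2.5 and 14.7 at TZ 5, against 9.85 in the control.

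**Figure D2:**
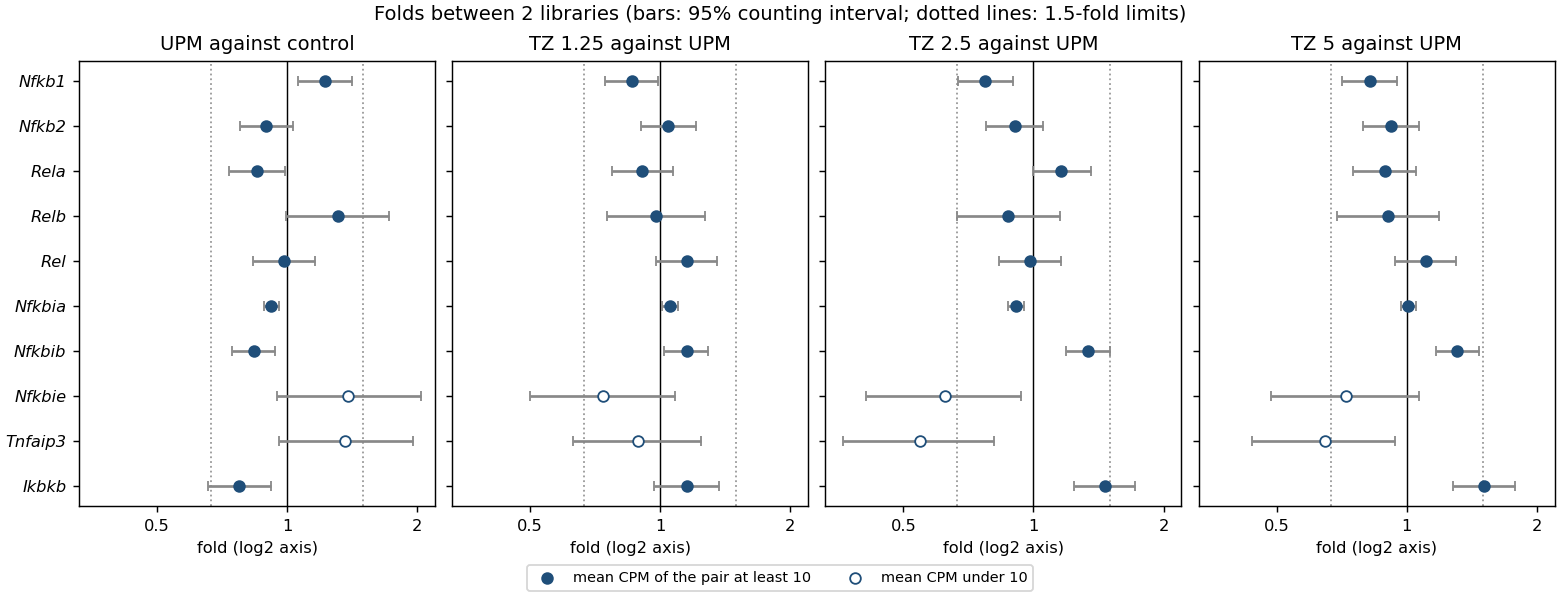
Folds between 2 libraries (x axes, log2 scale) for the 10 genes (rows) in 4 comparisons; bars are 95% counting intervals, dotted lines the 1.5-fold limits, and open points genes with a mean under 10 normalised CPM. Ikbkb in TZ 5 against UPM is the only filled point past a limit, at 1.51-fold.

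UPM against the control asks how the pathway's own transcripts stood after the particles. A gene was called when its fold was at least 1.5 either way, its interval excluded 1 and the pair's mean was at least 10 normalised CPM. Of the 8 genes measured on those terms 0 were called, where 3.08% of all 8282 genes measured were. Without the minimum fold, the interval lay above 1 for Nfkb1 and below 1 for Rela, Nfkbia, Nfkbib and Ikbkb, which is 5 of 8 genes against 34.0% of all genes. The median log2 fold of the 8 genes was −0.14, and that of all genes was −0.005. In the fit of all 5 libraries by edgeR the UPM term, tested by quasi-likelihood with adjusted p-values, called 0 of the 10 genes and 0.113% of the 12381 tested. At an unadjusted p under 0.05 there were 0 of the 10, against 7.79% of all genes. DESeq2 also called 0 (0 when unadjusted). The estimate was largest for Relb, at a log2 value of 0.36 (SE 0.26, adjusted p = 0.784), and lowest for Ikbkb, at −0.29 (SE 0.17, adjusted p = 0.701). The lone control was taken there to vary like the 4 particle-exposed libraries around the dose line.

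TZ against UPM asks what pretreatment changed in particle-exposed cells. TZ 1.25 had 0 of 8 genes called, against 2.22% of all genes, TZ 2.5 had 0 of 8 against 4.40%, and TZ 5 had 1 of 8 (Ikbkb, higher) against 6.57%, with 3.78% of all genes called higher. Without the minimum fold, 3, 4 and 3 of the 8 genes differed beyond counting error at the rising doses, against 29.8%, 41.0% and 45.0% of all genes. Nfkb1 was below UPM and Nfkbib above it at all 3 doses. The 3 comparisons share the UPM library, so these folds are not independent, and a low or high value in UPM enters each of them and the comparison with the control.

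The dose trend was tested in the fit of all 5 libraries, with dose as a number. The UPM term fits the control exactly, so the slope rests on the 4 particle-exposed libraries. Ikbkb rose by a log2 value of 0.12 per µg/mL (SE 0.036, adjusted p = 0.0363, edgeR quasi-likelihood test) and was the only one of the 10 genes to pass, where 2.95% of the genes tested rose and 2.50% fell. The call ended when any of 3 libraries was left out, with adjusted p = 0.429 without UPM, 0.0663 without TZ 2.5 and 0.0947 without TZ 5. Nfkbib had an estimate of 0.076 per µg/mL (SE 0.029, adjusted p = 0.120) and Tnfaip3 of −0.14 (SE 0.076, adjusted p = 0.331), neither past the limit. At an unadjusted p under 0.05 edgeR had 2 of the 10 (Ikbkb and Nfkbib), against 17.6% of all genes tested. Estimates of the other 7 genes lay between −0.088 for Nfkbie and 0.015 for Rel. DESeq2 gave 4 of the 10 genes an adjusted p and called 0 of them, and the only one of the 10 with an unadjusted p under 0.05 was Ikbkb, which had no adjusted p, where 8.35% of the same 12381 genes had one under 0.05. With 2 residual degrees of freedom these p-values rest mostly on spread shared across genes.

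Ratios of counts within a library do not depend on scaling, and those shown were chosen after the values were seen. Nfkb1 over Rela was 1.36 in UPM (1.18 to 1.57), 1.29 at TZ 1.25 (1.10 to 1.51), 0.907 at TZ 2.5 (0.776 to 1.06) and 1.26 at TZ 5 (1.06 to 1.48), against 0.95 in the control (0.819 to 1.10). UPM lay above the control without overlap of the intervals, and TZ 2.5 lay with the control. Ikbkb over Chuk was 1.55 in UPM (1.27 to 1.90), 1.43 at TZ 1.25 (1.19 to 1.72), 2.19 at TZ 2.5 (1.80 to 2.66) and 1.95 at TZ 5 (1.62 to 2.35), against 1.53 in the control (1.28 to 1.82). Nfkbib over Nfkbia was 0.121 in UPM (0.111 to 0.132), 0.131 at TZ 1.25 (0.121 to 0.143), 0.177 at TZ 2.5 (0.163 to 0.192) and 0.157 at TZ 5 (0.144 to 0.170), against 0.133 in the control (0.122 to 0.144). TZ 2.5 was highest for both of these ratios, but its intervals overlapped those of TZ 5. The intervals of UPM and the control also overlapped. Counts of the 3 IkB genes together were 3.37 times those of the 5 subunit genes in UPM (3.18 to 3.57), 3.65 at TZ 1.25 (3.45 to 3.87), 3.44 at TZ 2.5 (3.24 to 3.66) and 3.80 at TZ 5 (3.58 to 4.05), against 3.70 in the control (3.49 to 3.91), most of them from Nfkbia.

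**Figure D3:**
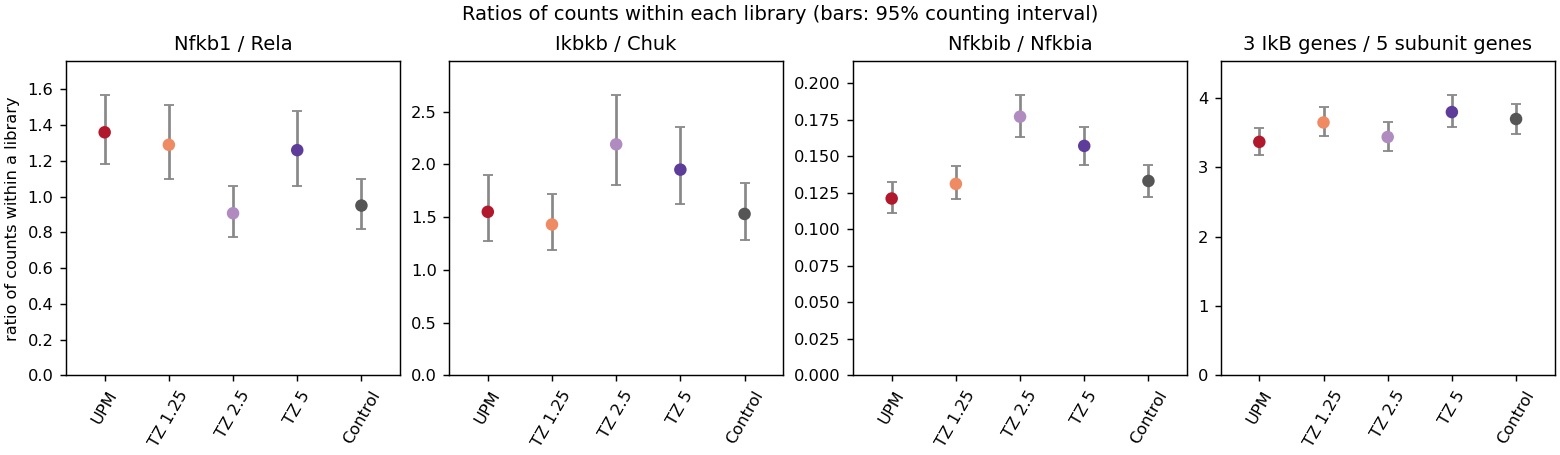
Ratios of counts within each library (y axes, from 0) in UPM, TZ 1.25, TZ 2.5, TZ 5 and the control (x axes), with 95% counting intervals. Nfkb1 over Rela is 1.36 in UPM and 0.95 in the control. Nfkbib over Nfkbia is highest in TZ 2.5 at 0.177, with an interval that overlaps that of TZ 5.

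Ikbkb had the widest range of the 8 genes with a mean of at least 10 normalised CPM, with a log2 range of 0.59, so the genes with the most similar course were sought for it. Among 5286 other genes over 30 normalised CPM, 4 of the 5 nearest by the root-mean-square difference of log2 levels, each centred on its own mean over the 5 libraries, were Nup85 (0.032), Uqcc5 (0.033), Tra2b (0.036) and Glrx5 (0.040). Nup85, encoding a nuclear pore protein, had 67.0 normalised CPM in UPM, 79.8 at TZ 1.25, 104.1 at TZ 2.5 and 103.0 at TZ 5, against 87.1 in the control. The nearest of the other members was Nfkbib, at 0.077, and the remaining 5 over 30 normalised CPM lay between 0.232 for Rel and 0.337 for Nfkb1. A gene of constant level would be at 0.220, and 2139 of the 5286 genes lay nearer to Ikbkb than that.

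**Figure D4:**
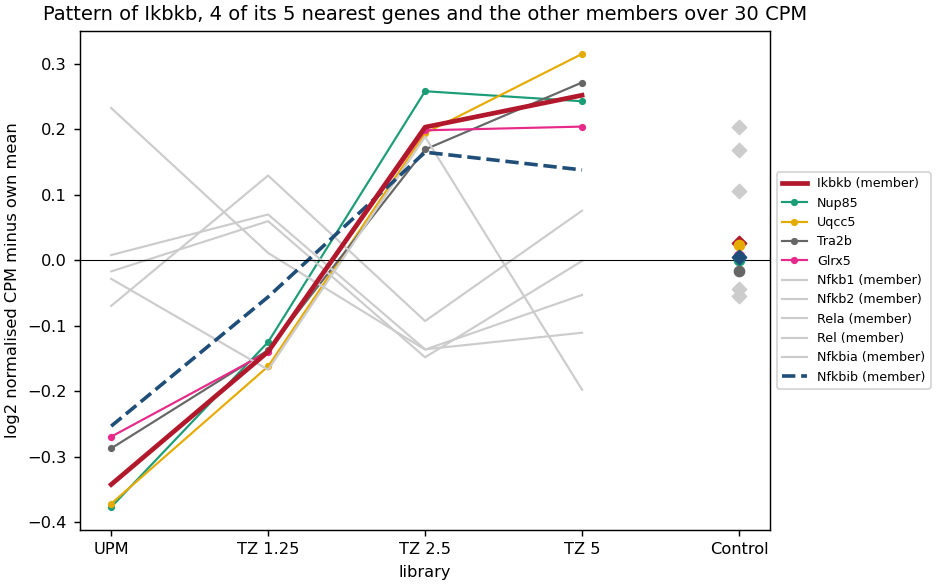
Log2 normalised CPM minus the gene's own mean (y axis) in each library (x axis) for Ikbkb (red), 4 of its 5 nearest genes (thin lines with points), Nfkbib (dashed) and the other 5 members over 30 normalised CPM (grey); diamonds and dots at the right are the control. Nfkbib lies at 0.077 from Ikbkb and the grey lines at 0.232 or more.

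The wider pathway was described through 4 lists. Over all genes measured, 3.08% were called for UPM against the control, and 2.22%, 4.40% and 6.57% for TZ 1.25, TZ 2.5 and TZ 5 against UPM. The share called over all genes was thus higher at each dose, with 1 library per dose and the same UPM library in each comparison. Of the 25 upstream kinases and adaptors, which carry the signal from receptors to IKK, 19 were measured, and 0 were called for UPM against the control (median log2 fold −0.008). TZ 1.25 against UPM had 0 called (median 0.11), TZ 2.5 had 2 higher (0.089) and TZ 5 had 1 higher (0.15), the median over all genes staying between −0.005 and 0.005. Ikbke, encoding an IKK-related kinase of antiviral signalling, had 13.3 normalised CPM in UPM, 15.8 at TZ 1.25, 21.2 at TZ 2.5 and 21.2 at TZ 5, against 12.9 in the control, and was called higher than UPM at TZ 2.5 and TZ 5 (1.59-fold, 1.23 to 2.07, for both). Birc2, the ubiquitin ligase cIAP1, was called higher at TZ 2.5 only, at 21.1 normalised CPM against 12.7 in UPM, while TZ 5 stood at 16.1. Bcl10, an adaptor of antigen and lectin receptor signalling, had 84.2 normalised CPM in UPM, 90.5 at TZ 1.25, 68.7 at TZ 2.5 and 60.2 at TZ 5, against 94.5 in the control, and fell by 0.11 per µg/mL on the log2 scale in the dose fit (adjusted p = 0.0164, edgeR). Without TZ 5 this was not called (adjusted p = 0.385). At the other ends of the list stood Chuk and Irak1 for UPM against the control, at 0.762-fold (0.618 to 0.937) and 1.21-fold (1.06 to 1.37), Irak1 at TZ 1.25 (0.836-fold, 0.734 to 0.951) and Map3k8 at TZ 2.5 (0.765-fold, 0.569 to 1.02).

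Of 25 other regulators, which include atypical IkB proteins, ubiquitin editors and the ligase that recognises IkB, 23 were measured. Nfkbid, encoding the nuclear protein IkBNS, was the only one called for UPM against the control, at 19.3 normalised CPM in UPM against 30.1 in the control (0.643-fold, 0.519 to 0.795). It had 27.3 at TZ 1.25, 27.6 at TZ 2.5 and 19.4 at TZ 5. TZ 1.25 had 0 of 23 called, whereas TZ 2.5 and TZ 5 each had 2 higher and 0 lower, Nkap and Pdlim2 in both, beside the 2.22%, 4.40% and 6.57% of all genes. Nkap, first described as an activator of NF-kB, had 51.6 normalised CPM in UPM, 71.0 at TZ 1.25, 85.6 at TZ 2.5 and 88.6 at TZ 5, against 67.8 in the control. Pdlim2, which promotes degradation of p65, had 18 in UPM, 20.9 at TZ 1.25, 31.9 at TZ 2.5 and 30.6 at TZ 5, against 24.1 in the control. Both rose with dose, by log2 values of 0.14 (adjusted p = 0.00344) and 0.16 (adjusted p = 0.0265) per µg/mL (edgeR quasi-likelihood test). As for Ikbkb, UPM was their lowest library, and without it neither was called (adjusted p = 0.436 and 0.396). None of the other extremes was called. Skp1, a subunit of the ligase for IkB, stood at 1.21-fold (1.10 to 1.33) for UPM against the control, Tnip3, an A20-binding protein, at 0.715-fold (0.559 to 0.913) in TZ 1.25 against UPM, the ligase gene Itch at 0.717-fold (0.615 to 0.836) in TZ 2.5 and the repressor gene Nkrf at 0.722-fold (0.540 to 0.961) in TZ 5. List medians were 0.011, −0.002, −0.034 and −0.093 for UPM against the control and the 3 doses against UPM.

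Among 9 receptors 6 were measured, and Ltbr, the lymphotoxin receptor that engages the alternative pathway, had the widest course. It had 65.1 normalised CPM in UPM, 104.1 at TZ 1.25, 116.2 at TZ 2.5 and 121.0 at TZ 5, against 100.9 in the control. UPM alone was low, at 0.645 times the control (0.575 to 0.723), and Ltbr was called higher than UPM at all 3 doses, by 1.60-fold, 1.79-fold and 1.86-fold. It rose by 0.15 per µg/mL (adjusted p = 0.00161, edgeR), but not without UPM (adjusted p = 0.628). Tnfrsf11a, encoding the receptor RANK, ran the other way, with 51.6 normalised CPM in UPM, 41.4 at TZ 1.25, 33.1 at TZ 2.5 and 40.0 at TZ 5, against 37.1 in the control, and was called lower at TZ 2.5 (0.640-fold, 0.542 to 0.755). Cd14, the endotoxin co-receptor, was the lowest of the list at TZ 5, at 385.8 normalised CPM against 501.4 in UPM (0.769-fold, 0.732 to 0.809), short of the 1.5-fold limit.

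The 30 target genes, whose transcription NF-kB is known to raise, had 17 or 18 measured members in each comparison. Nos2 alone was called for UPM against the control, lower, at 11.8 normalised CPM in UPM against 17.8 in the control, and 0 were called at any TZ dose against UPM. The list's median log2 fold was −0.12 for UPM against the control, then −0.018, −0.067 and −0.20 at TZ 1.25, TZ 2.5 and TZ 5. In the dose fit 0 of 24 tested targets passed in edgeR, with 7 at an unadjusted p under 0.05, where 17.6% of all genes were. DESeq2 gave an adjusted p to 12 of the 30 listed targets and called 0 of them. Of the 30, 3 had an unadjusted p under 0.05 there. The share was 8.35% over the 12381 genes that edgeR tested, which include only 24 of the 30. The extremes were Ccl2, a monocyte chemokine, at 0.679-fold (0.606 to 0.761) at TZ 2.5, and Birc3 at 0.713-fold (0.530 to 0.953) and Ccrl2 at 1.35-fold at TZ 5, all against UPM. Irf1, an interferon-pathway factor, was the lowest at TZ 1.25 (0.804-fold, 0.670 to 0.963), and Ccl2 the highest for UPM against the control (1.28-fold, 1.15 to 1.43). Icam1, an adhesion molecule for leukocytes, had 15.8 normalised CPM in UPM, 18 at TZ 1.25, 18.9 at TZ 2.5 and 20.0 at TZ 5, against 14.0 in the control. It was the highest of the list at TZ 1.25 and TZ 2.5. The interval of its fold against UPM included 1 at each dose (1.27-fold, 0.984 to 1.63, at TZ 5). Its dose trend was not called (adjusted p = 0.578, edgeR quasi-likelihood test).

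**Figure D5:**
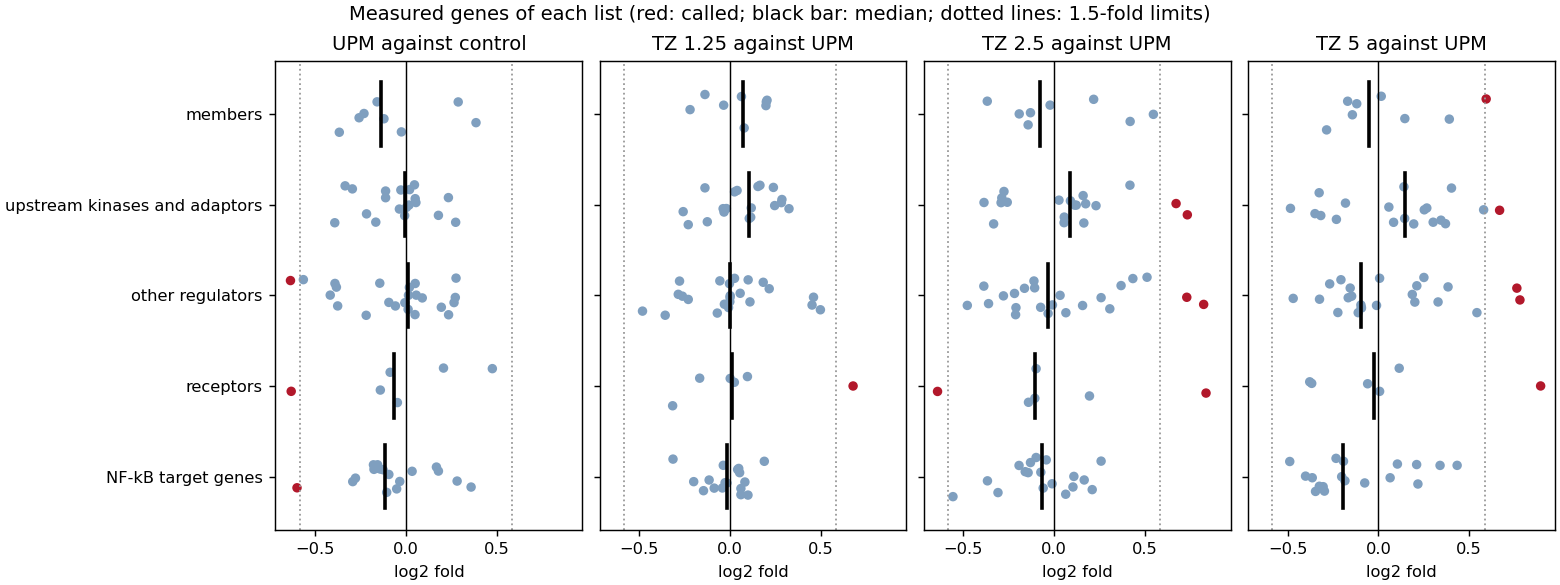
Log2 folds (x axes) of the measured genes of the 10 members and the 4 pathway lists (rows) in 4 comparisons; red points are called, black bars are medians and dotted lines the 1.5-fold limits. Called genes are 1 of 8 members and 0 of 18 target genes at TZ 5 against UPM, and medians stay within −0.20 and 0.15.

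Some counts can hold reads of other genes, since the use of strand was not given in the sources used here. In the GENCODE annotation of the earlier build GRCm38, Psd on the opposite strand covers the 3′ end of Nfkb2 and Ccer2 that of Nfkbib, with 1 to 14 and 0 to 2 counts of their own per library. Sirt2, also on the opposite strand, overlaps Nfkbib away from its 3′ end and had 292 to 358 counts. Nfkb1 overlaps a predicted transcript and Ikbkb an antisense transcript away from their 3′ ends, and no overlapping gene was annotated for Rela, Relb, Rel, Nfkbia, Nfkbie or Tnfaip3.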

How the data were processed

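The deposited values are raw counts, whole numbers listed by gene symbol with a separate file for each library. STAR, edgeR and build GRCm39 appear without versions in the submitters' processing notes, and the counter, annotation and strand setting remain not given in the sources used here. Folds were ratios of TMM-scaled CPM with 95% exact conditional binomial (Clopper-Pearson) intervals, and intervals of levels were exact Poisson intervals. No use of molecular identifiers is stated, and both cover counting error only. The fit used edgeR 4.0.16 (limma 3.58.1, R 4.3.3) on all 5 libraries with a UPM term and a linear TZ dose term, TMM factors, filterByExpr (12381 genes, all 10 members kept), the quasi-likelihood test and Benjamini-Hochberg adjustment over all genes at 0.05. It had 2 residual and 48.7 prior degrees of freedom. Standard errors (SE) were derived from the estimate and its F statistic, as |log2| over the root of F. DESeq2 1.42.0 was an alternative, and other scalings, limits, filters, dose as rank, no dose term and leaving out each particle-exposed library were tried. The members and lists were chosen with earlier results of these data known. Named were all 10 members and, of each list, the called genes and the highest and lowest folds of a comparison. Chuk and Ikbkg as IKK partners and the folds of TZ against the control were added. Of the 5 genes most like Ikbkb, 1 is not reported here.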

Additional observations from a re-analysis of the deposited data

How the results depend on the processing

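The counts of members called depended on the limits. For UPM against the control the count was 0, and 1 at a fold of 1.25 (Ikbkb). For TZ 2.5 against UPM it was 0, and 3 at a fold of 1.25 and 2 at a mean CPM minimum of 1 (Nfkbie and Tnfaip3, both lower). For TZ 5 against UPM it was 1, and 0 with DESeq2 size factors for scaling or a fold of 2, and 2 at a fold of 1.25 or a mean CPM minimum of 1. TZ 1.25 against UPM kept 0 under its 6 alternatives, and so did the UPM term under its 9. For the dose trend the count was 1, and 0 with DESeq2 (which gave Ikbkb no adjusted p), 2 with dose as rank (Nfkbib at adjusted p = 0.0432) and 0 to 1 with a library left out. Across all genes the dose trend called 674, and 295 with DESeq2, 916 with dose as rank, 209 without UPM and 370 without TZ 5; the UPM term called 14, and 6 with DESeq2, 1 with no dose term, 34 with no filter, 26 with dose as rank, and 14 to 80 with a library left out. Signs turned for estimates that were not called in any setting. With a library left out, dose estimates ranged from −0.009 to 0.029 for Rel, −0.276 to 0.004 for Nfkbie, −0.054 to 0.003 for Nfkbia and −0.032 to 0.086 for Rela (Rel turned without UPM, at −0.005, and without TZ 5), and UPM terms from −0.065 to 0.443 for Nfkbie and −0.057 to 0.100 for Rel. With no dose term the UPM term of Nfkbib was 0.002. In the dose trend Bcl10 and Ltbr were not called by DESeq2 (adjusted p = 0.0739 and 0.268), and Pdlim2 had no adjusted p there, while Cd14 was called lower. No paired analysis was possible because each group holds 1 library. Depth limits Nfkbie and Tnfaip3, at 39 to 79 counts.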
